A study of Caenorhabditis elegans with 8 samples.

Results

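The IFT-B core genes measured here are 8 *C. elegans* genes for proteins of intraflagellar transport: *dyf-1*, *osm-5*, *osm-6*, *dyf-6*, *dyf-13*, *ift-74*, *ift-81* and *ifta-2*. They were taken as the probe sets of the array whose annotation names one of these symbols and no other gene, which gave exactly 1 probe set for each gene and 8 of the 29317 probe sets in all. Whole-organism RNA came from day 1 adult hermaphrodites synchronised by bleaching and grown at 22 °C, with 200 to 300 worms per sample. The mutant was *dyf-1(mn335)*, a loss-of-function strain that lacks the distal segments of its sensory cilia, and the wild-type was N2, with 4 samples of each on Affymetrix *C. elegans* gene arrays. The values are log2 expression values after robust multi-array averaging (RMA), 1 per probe set and array. The mutant is a single strain, and a whole worm holds few ciliated cells among many others. In such samples a change in the number of ciliated neurons and a change in the RNA per neuron cannot be told apart.

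Intraflagellar transport builds and maintains cilia by moving trains of protein along the ciliary microtubules. The IFT-B complex is needed for the outward movement, which kinesin-2 motors drive, and the IFT-A complex is needed for the return, which a dynein drives. In *C. elegans* the only ciliated cells are sensory neurons. Worms that lack any of several IFT-B proteins have short cilia and fail to take up dye from the medium. DYF-1 is the worm counterpart of mammalian IFT70 and is needed for the kinesin OSM-3 to work on IFT trains in the distal part of the cilium. Many genes for IFT proteins are activated through an X-box promoter element by the RFX factor DAF-19.

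In *dyf-1(mn335)* the level of all 8 IFT-B core genes exceeded that of wild-type. Each passed limma's moderated test at an adjusted p under 0.01 (Benjamini-Hochberg over all probe sets), where 6.56% of all probe sets passed in the higher direction. In all 8 genes every mutant array also lay above every wild-type array, which held for 12.6% of all probe sets. The log2 fold changes ran from 0.72 for *ifta-2* to 2.94 for *ift-81*, with a median of 1.70 beside -0.04 over all probe sets. Of the 8 genes 7 changed at least 2-fold, while 7.87% of all probe sets had a log2 fold change above 1.002. The gap between the lowest mutant and the highest wild-type array was 0.49 to 2.40 on the log2 scale, while the SD within a strain was 0.09 to 0.59. Each change was 3.75 to 12.8 times the larger of its strain SDs. In an exact two-sided permutation test over the arrays each gene gave p = 0.0286, the smallest that 4 arrays against 4 can give.

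**Figure D1:**
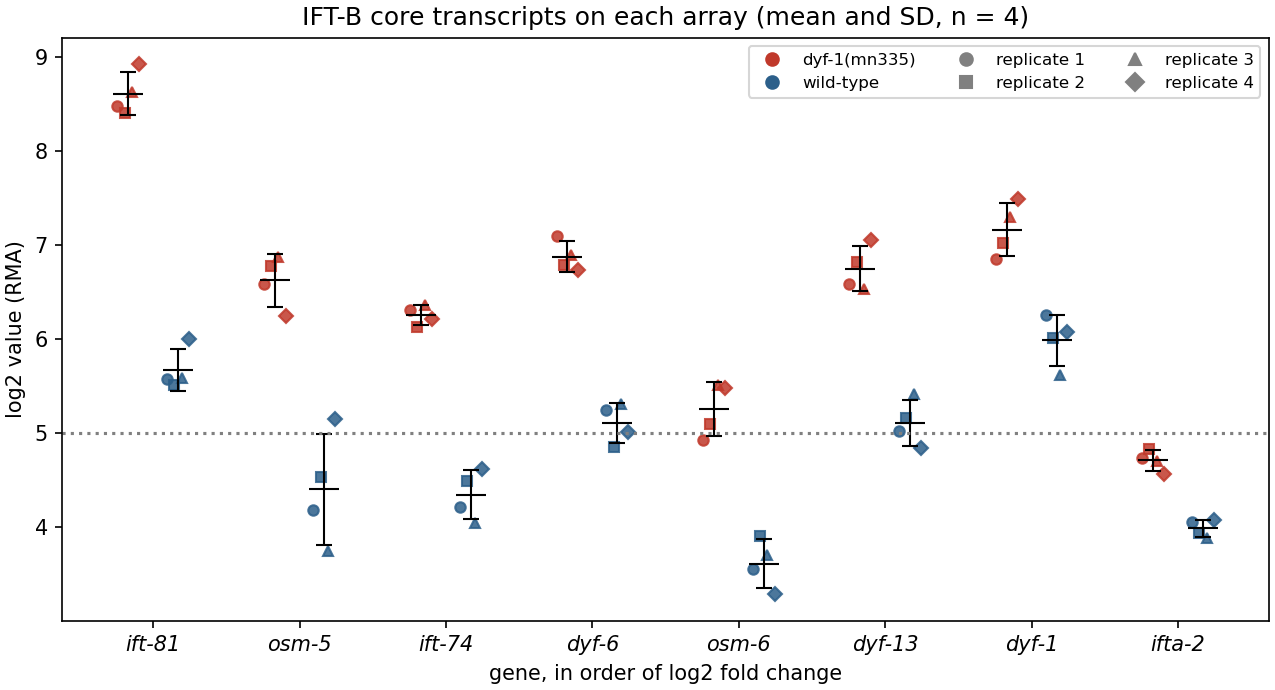
Log2 expression value (vertical axis) of the 8 IFT-B core genes in the 4 *dyf-1(mn335)* and 4 wild-type arrays, with 1 column of points per gene and strain. Each marker shape is 1 replicate, bars give the mean ± SD, and the dotted line is a log2 value of 5, under which a probe set is called dim here; for every gene the mutant arrays lie above the wild-type arrays.

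*dyf-1* (F54C1.5) had log2 values of 6.85, 7.02, 7.30 and 7.48 in mutant replicates 1 to 4 and of 6.26, 6.01, 5.61 and 6.07 in wild-type replicates 1 to 4, the order kept for all genes here. All 8 values lay above a log2 value of 5, under which a probe set is called dim here, and the 4 mutant arrays were the higher ones. The change was 1.18 on the log2 scale (SE 0.19, limma adjusted p = 0.0031), or 2.26-fold with a 95% interval of 1.68 to 3.04. The sources used here give neither the lesion of *mn335* nor the place of the probes in the gene, so this level does not check the strain labels. The call was lost without mutant replicate 3 or without wild-type replicate 2, with a limma adjusted p of 0.0127 and 0.0126.

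*ift-74* and *ift-81* encode coiled-coil proteins that bind each other and, in mammals and algae, bind tubulin cargo. *ift-81* (F32A6.2) was at 8.47, 8.40, 8.62 and 8.92 in the mutant and at 5.57, 5.51, 5.59 and 5.999 in wild-type. Its arrays were the most widely separated of the 8 genes, by 2.40 at their closest. The change was 2.94 on the log2 scale (SE 0.17, limma adjusted p = 4.6e-05), or 7.65-fold with a 95% interval of 5.89 to 9.95, and 0.201% of all probe sets had a larger log2 fold change. *ift-74* (C18H9.8) was at 6.30, 6.13, 6.36 and 6.21 in the mutant and at 4.22, 4.49, 4.04 and 4.62 in wild-type. The mutant arrays were tight (SD 0.10, n = 4), and the wild-type arrays were all dim. Its change was 1.91 on the log2 scale (SE 0.16, limma adjusted p = 1.9e-04), a 3.75-fold difference.

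*osm-5* and *osm-6*, the counterparts of mammalian IFT88 and IFT52, belong to the part of the complex without which worms form only short stumps of cilia. *osm-5* (Y41G9A.1) was at 6.59, 6.78, 6.88 and 6.25 in the mutant and at 4.19, 4.54, 3.74 and 5.15 in wild-type. Wild-type was the more scattered strain (SD 0.59 against 0.28, n = 4 each), and the highest wild-type and the lowest mutant value were both those of replicate 4. The change was 2.22 on the log2 scale (SE 0.28, limma adjusted p = 9.8e-04), or 4.65-fold, and was 2.59 without both replicate 4 arrays. *osm-6* (R31.3) was at 4.93, 5.10, 5.51 and 5.48 in the mutant and at 3.56, 3.90, 3.71 and 3.29 in wild-type. It crossed from the dim range, where all its wild-type arrays lay, to values around and above 5. The change was 1.64 on the log2 scale (SE 0.19, limma adjusted p = 6.7e-04), a 3.12-fold difference.

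*dyf-6* and *dyf-13*, the counterparts of mammalian IFT46 and IFT56, are named like *dyf-1* for the dye-filling defect of their mutants. *dyf-6* (F46F6.4) was at 7.09, 6.79, 6.89 and 6.73 in the mutant and at 5.25, 4.85, 5.31 and 5.02 in wild-type. Both strains varied little beside the difference, with SDs of 0.16 and 0.21 (n = 4 each). Its change was 1.77 on the log2 scale (SE 0.15, limma adjusted p = 2.5e-04), a 3.41-fold difference. *dyf-13* (C27H5.7) was at 6.59, 6.82, 6.53 and 7.05 in the mutant and at 5.03, 5.16, 5.41 and 4.84 in wild-type. The arrays of the strains were 1.12 apart at their closest. The change was 1.64 on the log2 scale (SE 0.17, limma adjusted p = 4.6e-04), 3.12-fold like that of *osm-6*.

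*ifta-2* is the counterpart of the small Rab-like GTPase IFT22 (RABL5), and worms can build cilia without it. *ifta-2* (T28F3.6) was at 4.74, 4.83, 4.71 and 4.57 in the mutant and at 4.05, 3.94, 3.89 and 4.08 in wild-type. It was the only one of the 8 that was dim in both strains, and its groups were tight and did not overlap. The change was 0.72 on the log2 scale (SE 0.12, limma adjusted p = 0.0038), 1.65-fold, and 13.1% of all probe sets had a larger log2 fold change. Its call was lost when any one of replicates 1 to 3 of either strain was left out, with limma adjusted p-values of 0.0118 to 0.0169. Near the background of the array a log2 difference can understate the change of a transcript, and 4 of the 8 genes (*osm-5*, *osm-6*, *ift-74* and *ifta-2*) were dim in wild-type.

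**Figure D2:**
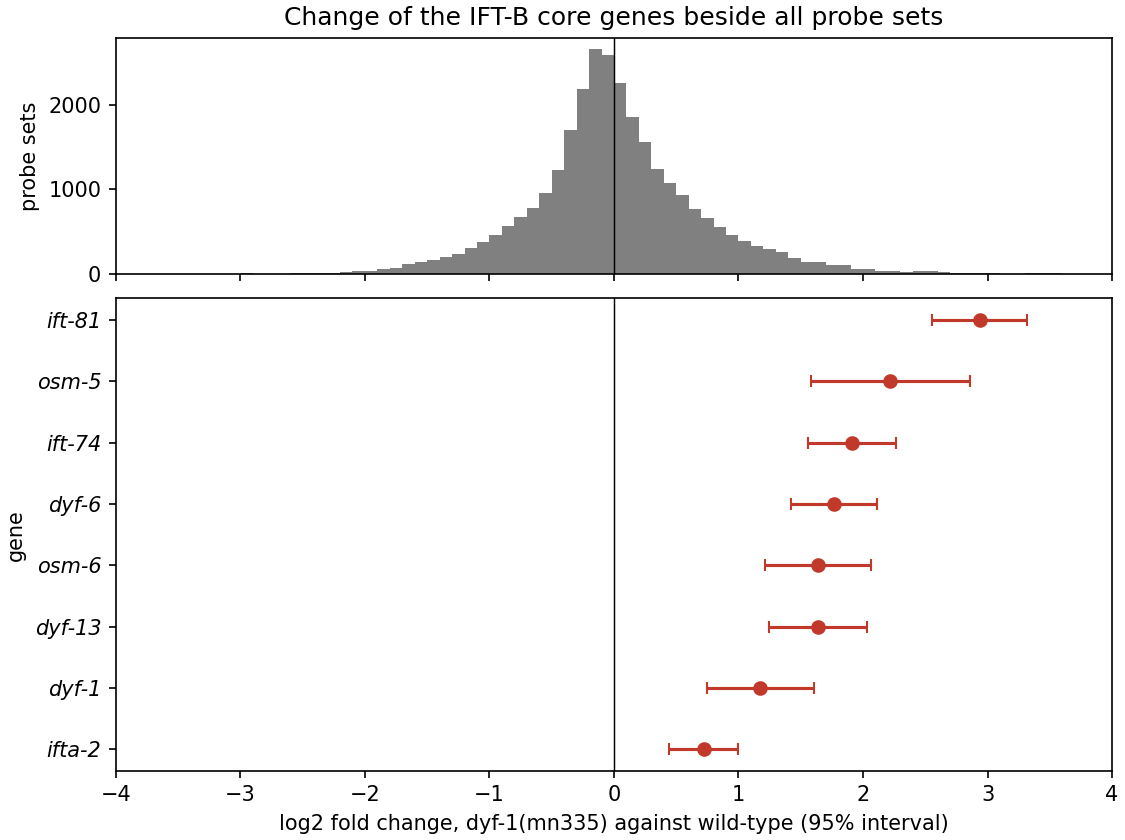
Log2 fold change of *dyf-1(mn335)* over wild-type (horizontal axis) of the 8 IFT-B core genes, as points with 95% intervals from limma, below a histogram of the same quantity for all 29317 probe sets. All 8 intervals lie to the right of 0, from 0.72 for *ifta-2* to 2.94 for *ift-81*, while the median of all probe sets is -0.04; the axis leaves out 6 probe sets that changed by more than 4.

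The log2 fold changes of the IFT-B core genes ran from 0.72 to 2.94. Values of different probe sets are not on one scale, so unequal log2 fold changes need not be unequal changes of the transcripts. To compare each gene with *dyf-1*, the log2 value of *dyf-1* was subtracted from that of the gene within each array. The resulting values were compared between strains for 7 genes. The share of all probe sets without overlap was not taken for such differences. The change of *ift-81* exceeded that of *dyf-1* by 1.76 (95% interval 1.34 to 2.19) and that of *ift-74* by 0.73 (0.24 to 1.22), and in both the strains did not overlap (exact permutation p = 0.0286 each, 0.1 after Benjamini-Hochberg over the 7 differences). *osm-5* exceeded it by 1.04 (0.20 to 1.89) with overlapping arrays (exact permutation p = 0.0571). For *dyf-6* (0.59), *osm-6* (0.46), *dyf-13* (0.46) and *ifta-2* (-0.45) the 95% intervals included 0, and the exact permutation p-values were 0.0857 to 0.143. The difference of *ift-74* from *dyf-1* lay between 0.60 and 0.85 with any single array left out, and its exact permutation p rose to 0.0571 without any one of the 4 wild-type arrays.

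Ordered by their change the genes ran *ift-81*, *osm-5*, *ift-74*, *dyf-6*, *osm-6*, *dyf-13*, *dyf-1* and *ifta-2*. No neighbours in this order differed beyond their spread: all 7 intervals of the difference included 0, and in all 7 the arrays of the strains overlapped. The widest step was that from *ift-81* to *osm-5*, at 0.72 (95% interval -0.08 to 1.52), and the smallest that from *osm-6* to *dyf-13*, at 0.00022 (-0.46 to 0.46). The likeness to *dyf-1* over all arrays includes these differences in change. After each probe set was centred on its own mean over the 8 arrays, the root mean square difference from *dyf-1* was 0.345 for *ifta-2*, 0.358 for *osm-6*, 0.410 for *dyf-13*, 0.441 for *ift-74*, 0.459 for *dyf-6*, 0.671 for *osm-5* and 0.906 for *ift-81*. Within a strain the order was another: the SD of the difference from *dyf-1* was 0.13 in the mutant and 0.32 in wild-type for *ift-81*, and 0.47 and 0.50 for *osm-5* (n = 4 each).

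**Figure D3:**
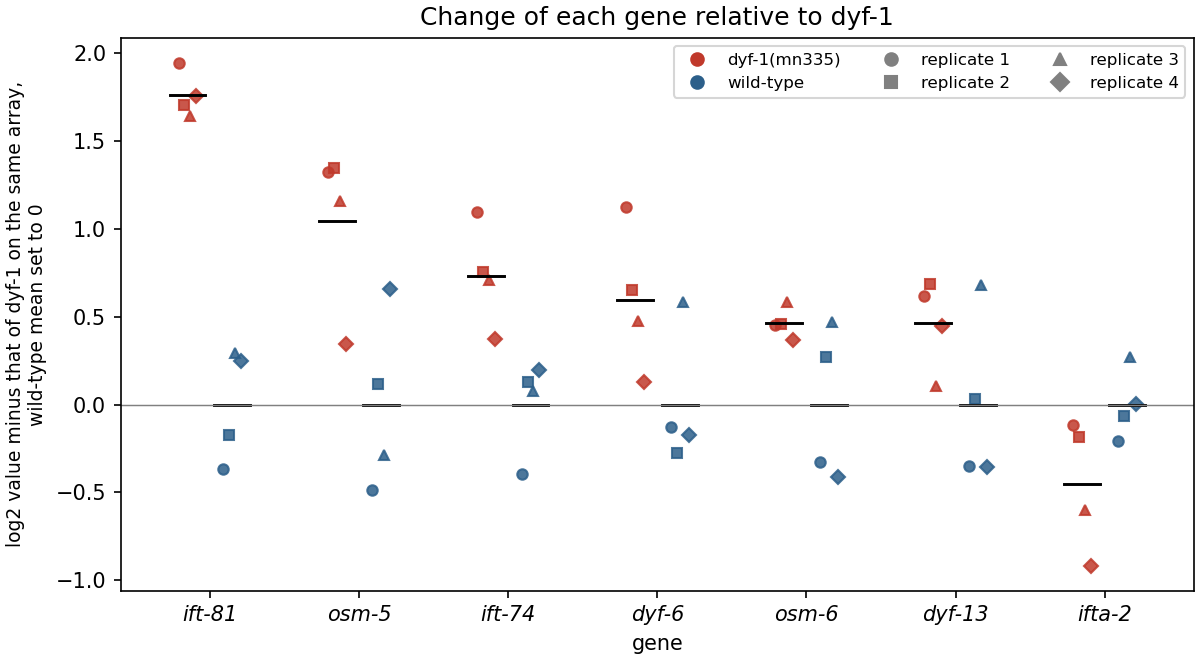
Log2 value of 7 IFT-B core genes minus that of *dyf-1* on the same array, with the wild-type mean of each gene set to 0 (vertical axis), for the 4 *dyf-1(mn335)* and 4 wild-type arrays (marker shape: replicate; line: mean). The strains are separate for *ift-81* and *ift-74* and overlap for the other 5.

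Of 11 genes expressed in all neurons, 7 were called higher in the mutant and 0 lower, and the other 4 had log2 fold changes of -0.11 to 1.396. Over all 11 the changes ran from -0.11 to 1.97 for *unc-10*, with a median of 1.10. Of the IFT-B core genes only *ift-81* and *osm-5* changed by more than every gene of this list. The mean log2 value of the 11 genes was 9.42 to 9.45 in the mutant arrays and 8.27 to 8.71 in the wild-type arrays. The 8 IFT-B core genes were therefore set against this mean within each array, a comparison chosen after the data were seen. *ift-81* rose beyond it by 1.91 (95% interval 1.61 to 2.20), *osm-5* by 1.19 (0.57 to 1.81), *ift-74* by 0.88 (0.62 to 1.14) and *dyf-6* by 0.74 (SE 0.19), without overlap of the strains (exact permutation p = 0.0286 each, 0.0571 over the 8 differences). The differences of *osm-6* and *dyf-13* were 0.61 each with overlapping arrays (exact permutation p = 0.0571 each). *dyf-1* differed from the pan-neuronal mean by 0.15 (-0.34 to 0.64, exact permutation p = 0.486), and *ifta-2* by -0.31 (-0.53 to -0.08, exact permutation p = 0.0571). With any single array left out, *ift-81*, *osm-5* and *ift-74* stayed at p = 0.0286 in the exact permutation test, while *dyf-6* went to 0.0571 without any one of the mutant arrays. Without wild-type replicate 4 the difference was 0.40 for *osm-6*, 0.42 for *dyf-13*, 0.08 for *dyf-1* and -0.38 for *ifta-2* (exact permutation p = 0.143, 0.114, 0.771 and 0.0286). The intervals leave out the spread between the 11 genes, and the share of all probe sets without overlap was not taken. The part of the neuronal share of the RNA in these changes was not tested.

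The replicate 4 array of each strain stood apart from its group over all probe sets. Wild-type replicate 4 correlated with wild-type replicates 1 to 3 at 0.958 to 0.974 and with mutant replicates 1 to 3 at 0.976 to 0.978, while wild-type replicates 1 to 3 correlated among themselves at 0.987 to 0.992. In the mutant, replicate 4 reached correlations of 0.978 to 0.984 with the other arrays, which had 0.993 to 0.994 with each other. In wild-type replicate 4 the IFT-B core genes went both ways: against the mean of wild-type replicates 1 to 3, *osm-5* was higher by 0.99, *ift-81* by 0.44 and *ift-74* by 0.37, while *osm-6* differed by -0.44 and *dyf-13* by -0.36. Their median difference was 0.12, beside 1.62 for mutant replicates 1 to 3. In mutant replicate 4 the difference from the other mutant arrays ran from -0.50 for *osm-5* to 0.43 for *dyf-1*. In wild-type replicate 4 the median difference was 0.91 for 8 moulting genes, 1.17 for 5 pharyngeal muscle genes and 0.77 for 7 body wall muscle genes, beside 1.68, 1.74 and 0.70 for mutant replicates 1 to 3. Without wild-type replicate 4, as without both replicate 4 arrays, all 8 IFT-B core genes were called higher, while the share of all probe sets called was larger (3893 higher and 3788 lower without this array, against 1924 and 1015 with it).

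The other genes of ciliary transport gave the setting of the 8. In 5 further lists with 38 measured genes, 28 were called higher and 0 lower, beside the 6.56% of all probe sets. The lists were written from general knowledge of the worm genes with earlier results of these data known, so their counts are a description. In the peripheral part of IFT-B 6 of 6 genes were called higher (median log2 fold change 1.53), from *dyf-3* at 0.77 (SE 0.14, limma adjusted p = 0.0047) to *che-2*, the counterpart of IFT80, at 2.42 (SE 0.18, limma adjusted p = 1.2e-04). In IFT-A, the complex of the return movement, 4 of 6 were called higher (median 1.57). *ift-139* had a change of 2.96 (SE 0.17), next to the 2.94 of *ift-81*, while *ift-43* had 0.12 (SE 0.13, limma adjusted p = 0.54).

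Of the motors of the cilium, 5 of 7 were called higher, with a median of 0.83. The heavy chain of the ciliary dynein, *che-3*, rose by 1.51 (SE 0.16, limma adjusted p = 4.2e-04), and the kinesin-II subunit *kap-1* had a change of -0.05 (SE 0.14, limma adjusted p = 0.79). *osm-3*, the kinesin that relies on DYF-1 in the distal segment, was at 5.50, 5.24, 5.26 and 5.26 in the mutant and at 4.28, 4.67, 4.37 and 4.80 in wild-type. All its mutant arrays lay above the wild-type arrays, with a change of 0.79 (SE 0.16, limma adjusted p = 0.0072).

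In the list of the BBSome, the cargo adaptor of IFT trains, and the associated *arl-6*, all 8 measured genes were called higher (median 1.44). They ran from *bbs-5* at 1.18 (SE 0.20) to *bbs-1* at 1.997 (SE 0.37). In the transition zone, the gate at the base of the cilium, 5 of 11 were called higher (median 0.53), and 10 of the 11 were dim in wild-type. *tmem-231* had a change of 1.63 (SE 0.21, limma adjusted p = 9.4e-04) and *mks-1* of -0.08 (SE 0.17, limma adjusted p = 0.75). Neither list was tested against the IFT-B core genes.

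*daf-19*, the RFX factor of ciliary genes, was at 9.83, 9.73, 9.79 and 9.32 in the mutant and at 7.93, 8.09, 7.75 and 9.16 in wild-type. The groups were separate by 0.16, and wild-type replicate 4 lay closer to the mutant arrays than to its own group. The change was 1.44 (SE 0.29, limma adjusted p = 0.0082), and 1.86 between replicates 1 to 3 of each strain.

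**Figure D4:**
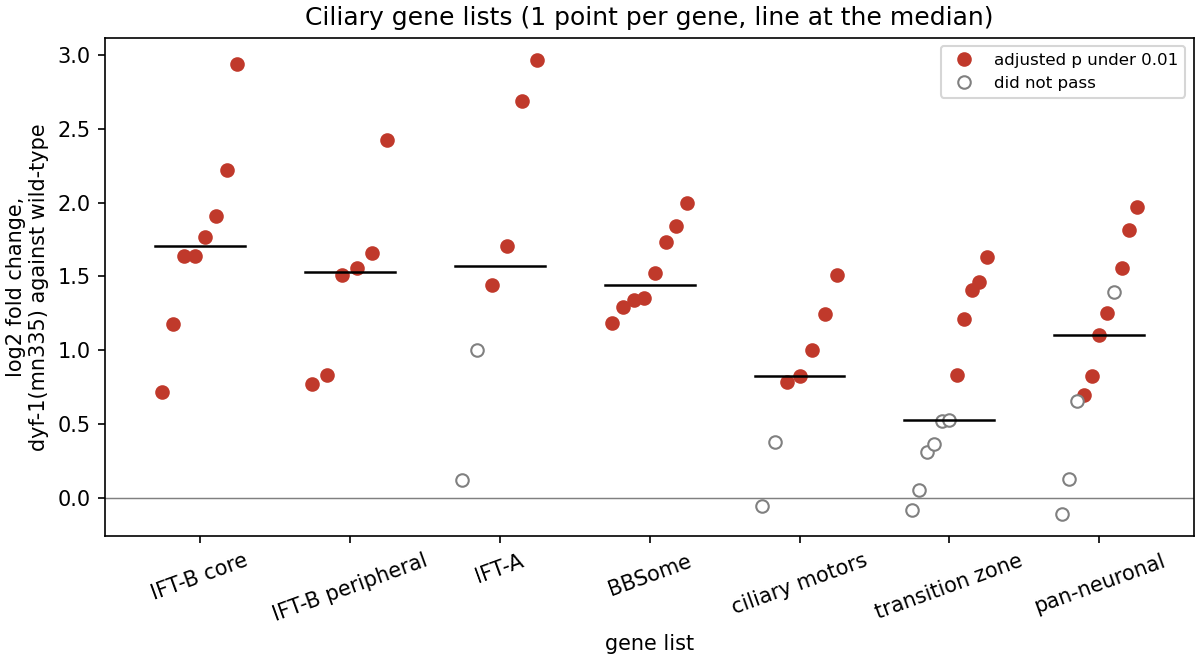
Log2 fold change of *dyf-1(mn335)* over wild-type (vertical axis) of each measured gene of the IFT-B core, 5 other ciliary lists and the pan-neuronal list (horizontal axis), filled where called at a limma adjusted p under 0.01, with a line at the median of each list. The IFT-B core has a median of 1.70 and the transition zone one of 0.53; no gene of these lists was called lower.

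Markers of other cells, and moulting genes, moved to different degrees. Of 9 genes of the polycystin neurons, which are mainly male or labial, 2 were called higher (median 0.09) and all 9 were dim in wild-type, with the mean of the list at 3.87 to 4.03 in the mutant arrays and 3.63 to 3.71 in the wild-type arrays. *lov-1* and *pkd-2*, their defining polycystins, had mean log2 values of 3.36 and 4.64 in the mutant. Of 10 sensory transduction genes 4 were called higher (median 0.84), as were 4 of 8 genes of the amphid glia (median 0.86), whose mean was 6.24 to 6.83 in the mutant arrays and 5.55 to 6.14 in the wild-type arrays. Moulting genes rose in 5 of 8 cases (median 1.36), with a mean of 7.98 to 8.83 in the mutant and 6.68 to 7.88 in wild-type. Germline and oocyte genes were called in 0 of 12 cases by limma (median 0.04), and at p under 0.05 without adjustment 0 were higher and 1 lower. The intestine had 1 gene higher and 2 lower of 8 (median -0.20). The epidermis had 1 higher and 1 lower of 8 (median 0.56), from -0.89 for *col-19* to 2.62 for *sqt-3*, which was not called. Pharyngeal muscle had 1 higher of 5 (median 1.26) and sperm 1 lower of 8 (median -0.42). At a limma p under 0.05 without adjustment, 4 pharyngeal muscle genes were higher and 0 lower. At that threshold 0 sperm genes were higher and 4 lower, and the epidermis had 5 higher and 1 lower. In body wall muscle 0 of 7 were called (median 0.48, with 4 higher and 0 lower at p under 0.05 without adjustment). The part of these cell types, and of the stage of the worms, in the changes of the IFT-B core genes was not tested.

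The changes also depend on the scaling between arrays. With each array centred on its median, the median change over all probe sets moved from -0.04 to -0.19 on the log2 scale, and 47.8% of the calls were higher calls, against 65.5% with the deposited values. The 8 IFT-B core genes kept a higher level in the mutant, at 0.57 for *ifta-2* to 2.78 for *ift-81*. All were called except *ifta-2* (limma adjusted p = 0.0103), where 1515 of all probe sets were called higher and 1653 lower. With cyclic loess between arrays all 8 genes were called. Of all 29317 probe sets 1703 were then called higher and 1161 lower, so that 59.5% of the calls were higher calls.

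**Figure D5:**
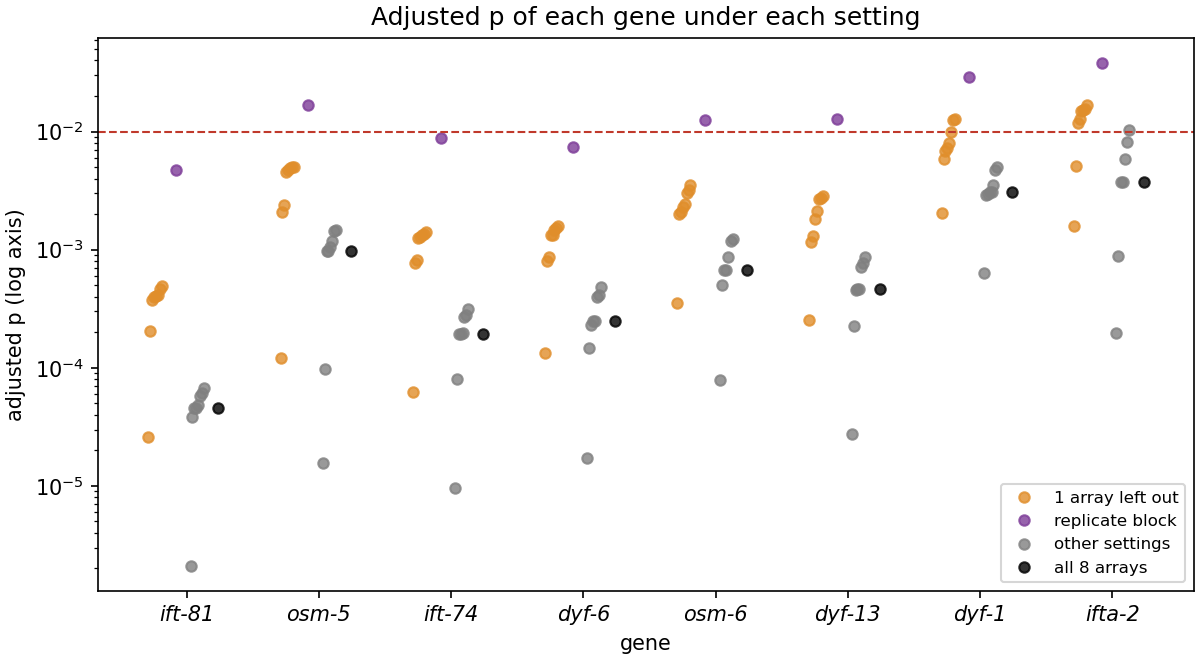
Adjusted p of limma (vertical log axis) of each IFT-B core gene (horizontal axis) under each processing setting, coloured by whether all 8 arrays, 1 array fewer, the replicate block or another setting was used; the dashed line is the threshold of 0.01. *ift-81*, *ift-74* and *dyf-6* stay under the threshold in every setting drawn, and the other 5 exceed it with the replicate block, *dyf-1* and *ifta-2* in other settings as well.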

How the data were processed

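RNA of 4 *dyf-1(mn335)* and 4 wild-type samples was hybridised to Affymetrix arrays. The deposited log2 values are the output of RMA, which the authors ran in oligo (background adjustment, quantile normalisation, median polish of the probes), and were used as they stand. Quantile normalisation equalises the probes between arrays, not the summarised values, so a change is relative to the other probes and depends on the scaling; values of different probe sets are not on one scale. The number of arrays limits the precision; array medians were 5.14 to 5.36, and 0 columns were left unused. Samples were grouped by the genotype in their titles. The methods call the replicates independent; the labels say nothing of separate cultures, so p-values measure the spread between these samples.

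Probe sets were named from the platform annotation, which gives 1 gene for 25546, several for 646 and none for 3125 of 29317. The strains were compared by the two-sided moderated test of limma (version 3.58.1, R version 4.3.3; lmFit, then eBayes with its defaults), with Benjamini-Hochberg adjustment over all probe sets and calls at an adjusted p under 0.01. The fit was run on simulated data with independent noise on each array. Such data hold no array that stands apart, so the run does not measure the error of the fit here. Single values were compared with exact two-sided permutation tests, and intervals are 95% intervals. A probe set is called dim at a mean log2 value under 5. The 8 genes and all lists were chosen with earlier results of these data known. Named are the 8 genes, the gene with the largest and the one with the smallest change of each of 5 ciliary lists, *osm-3*, *daf-19* and the 5 genes most like *dyf-1*; *lov-1* and *pkd-2* were added after their values were seen. Alternatives were an adjusted p under 0.05, a filter on dim probe sets, trend and robust eBayes, array weights, centring, cyclic loess, a block for the replicate number, averaging over the probe sets of each gene, and leaving out arrays. For the comparison with the pan-neuronal mean, arrays were left out as an alternative chosen after the data were seen. A planned search of promoters for the X-box was not run, and no sequence or coordinate is given, since no sequence table was used here. Plots were made in Python 3.11.15 (matplotlib 3.10.9).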

Additional observations from a re-analysis of the deposited data

Results flagged for a closer look

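In 54 groups of 4 arrays (27 genes, by strain), 4 held an array far from the other 3 by Dixon's criterion, where chance gives about 1 in 20 groups. For *ift-81* wild-type replicate 4 was at 5.9991, above the nearest wild-type array at 5.5885 and under all mutant arrays. For *ift-43* wild-type replicate 3 was at 8.4096, with the nearest array at 8.1709. For *mks-1* wild-type replicate 3 was at 5.2369, with the nearest at 4.6518. For *osm-3* mutant replicate 1 was at 5.5043, with the nearest at 5.2629.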

How the results depend on the processing

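None of the 8 IFT-B core genes changed direction under any alternative. With both replicate 4 arrays left out, 4977 probe sets were called higher and 4781 lower, with array weights 5489 and 5391, at an adjusted p under 0.05 3848 and 3419, and after centring 1515 and 1653. The IFT-B core genes called were 8 of 8 under these settings, except 7 after centring. With the filter on dim probe sets 1404 probe sets were called higher and 786 lower. The filter left out *osm-6* and *ifta-2*, and 6 of 6 remaining IFT-B core genes were called. Deviations of same-numbered arrays from the mean of their strain correlated at -0.57 (replicate 4) to 0.01. Since both replicate 4 arrays stood apart, these values cannot show whether samples of the same number were paired. With the number as a replicate block 236 probe sets were called higher and 79 lower, 3 of the 8 IFT-B core genes (*dyf-6*, *ift-74* and *ift-81*) and 6 of 38 other ciliary genes; the limma adjusted p-values of the others were 0.0126 to 0.0382. With 1 array left out, 932 to 3893 probe sets were called higher, 324 to 3788 lower, 6 to 8 IFT-B core genes and 17 to 29 other ciliary genes. The differences from *dyf-1* then ranged from 1.64 to 1.86 for *ift-81*, 0.60 to 0.85 for *ift-74*, 0.88 to 1.27 for *osm-5*, 0.42 to 0.79 for *dyf-6*, 0.33 to 0.62 for *osm-6*, 0.35 to 0.69 for *dyf-13* and -0.57 to -0.30 for *ifta-2*. Without both replicate 4 arrays they were 0.92 for *ift-74* and 1.85 for *ift-81*, at the smallest exact permutation p of 3 arrays against 3, 0.1. Relative to the pan-neuronal mean the difference of *dyf-1* turned from 0.15 to -0.032 (exact permutation p = 0.9) without both replicate 4 arrays, and ranged from 0.04 to 0.26 with 1 array left out. Without both, *osm-6* was at 0.33 and *dyf-13* at 0.32 (exact permutation p = 0.2 each). The cause of these shifts was not tested.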

Other observations

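Among 13905 genes with a mean log2 value of at least 5, the 5 whose centred values over the 8 arrays lay closest to those of *dyf-1* were *C34E7.7* (root mean square difference 0.128), *Y67A10A.7* (0.141), *ZC13.2* (0.162), *H28G03.8* (0.167) and *F13H6.20* (0.171). *C34E7.7* had values of 6.79, 6.93, 7.03 and 7.25 in the mutant and of 5.85, 5.81, 5.35 and 6.09 in wild-type, a change of 1.22 (SE 0.18, limma adjusted p = 0.0020). The closest IFT-B core genes were *ifta-2* at place 520 and *osm-6* at 598 when set into this ranking of 13905 genes (both have a mean log2 value under 5). The farthest were *osm-5* at place 6492 and *ift-81* at 10425. The measure uses all 8 arrays, so it holds the difference between the strains as well as the scatter within them.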
